A study of Homo sapiens with 11 samples.

Results

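The genes described here are the fibroblast growth factors (FGF), platelet-derived growth factors (PDGF), vascular endothelial growth factors (VEGF) and insulin-like growth factors (IGF), with insulin (INS), hepatocyte growth factor (HGF) and proteins that bind these ligands. They were collected by symbol from the probe-to-gene table: FGF with a digit, PDGF, IGF with a digit, IGFBP, VEGF without VEGFA, and INS, INSR, IRS1, IRS2, KDR, FLT1, FLT4, PGF, HGF and MET. The rule took 59 of the 14941 genes named on the array, measured by 72 of its 22464 probes. Beside the ligands and binding proteins it took in receptors of the PDGF, VEGF and insulin families, adaptors of the insulin receptor, RNA-binding proteins of IGF2 mRNA and a pair of antisense RNAs, so the set is wider than ligands and binding proteins alone. The FGF receptors carry symbols outside the rule. RT4 is an established line from a human bladder transitional cell papilloma. RT4 cells were grown on plastic (2 arrays) or were moved from plastic onto Matrigel, a basement membrane extract of a mouse tumor that the study used as cancer-remodeled extracellular matrix (crECM). On crECM 1 array was made at each of 12 h and days 1, 2, 3, 4, 6, 7, 8 and 9, which gives 9 arrays. The labels name no drug or genetic change, give McCoy's medium with fetal calf serum for the crECM cultures, and note of the second plastic replicate that Matrigel came next. The comparison asked which genes changed state when papilloma cells met the matrix. The labels do not say whether the plastic replicates, or the crECM time points, came from separate cultures, so p-values measure only the spread between these arrays.

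Growth factors of these families are secreted proteins that bind receptor tyrosine kinases on the same or neighboring cells and switch on the RAS-MAPK and PI3K-AKT pathways. PDGF ligands act mainly on mesenchymal cells, VEGF ligands mainly on endothelial cells, and insulin is made by pancreatic beta cells, while IGF binding proteins hold IGF1 and IGF2 outside the cell and set how much reaches the receptor. In urothelium FGF signaling through FGFR3 and HGF signaling through MET are best known from papillary tumors and wound repair.

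The deposited values are intensities above the zero point of the array in units of the standard deviation (SD) of its noise. A probe over 3 SD was read as expressed and a probe over 5 SD as highly expressed. A probe at or under the zero point carries the minimum of its array. Raw intensities had a median of 162 and 140 on the plastic arrays and of 224 to 482 on the crECM arrays. A deposited value of 3 SD stood for a raw intensity of 13.4 and 9.6 on plastic, against 52.3 to 136 on crECM. Plastic arrays had a low-intensity peak at 28.1 and 29.3 raw units and a smaller one at 3.74 and 1.79, and crECM arrays had their main low peak between 30.5 and 63.8, with a smaller one between 2.27 and 5.05 on 5 of the 9. Scale and group cannot be told apart here, and results near the noise are therefore given with their raw intensities. Of 17 urothelial and epithelial markers tested 0 were higher and 3 lower on crECM, where 24.2% of all genes were higher and 20.1% lower. The 3 were KRT13, KRT20 and CDH1. KRT13 and KRT20 did not differ from 3 SD in the rebuilt values, and CDH1 turned to 0.27 on the log2 scale in those without regression. Of the 18 markers on the array 17 were expressed on both plastic arrays. KRT13 and KRT20, keratins of urothelial differentiation, were under 7 SD on plastic, and CDH1 was expressed on every array. KRT13 was above 3 SD on plastic alone, so a filter of 3 SD on at least 2 arrays fixed its direction. All 8 fibroblast and pericyte markers, such as DCN and FAP, and 4 of 8 endothelial markers were also above 3 SD on both plastic arrays, although RT4 is an epithelial line.

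Of the 59 growth factor genes, 39 (66.1%) were expressed on all 11 arrays, against 76.8% of all genes, and 6 (10.2%) were expressed on no crECM array, against 6.31% of all genes. Both plastic arrays were at their minimum for 7 genes (11.9%, against 7.78% of all genes): FGF3, FGF8, FGF16, FGF22, INS, PDGFRB and IGF2BP2. The probe with the highest mean stands for a gene with several probes, and 57 genes passed the requirement of 3 SD on at least 2 arrays and were tested. IRS2 and IGF2-AS, the antisense RNA of IGF2, did not pass. A gene that passed through 1 group alone had its direction fixed by that filter, which held for FGF11, FGF14, FGF20 and IGF2BP3 on plastic and for PDGFA, INS, FGF3, FGF8, FGF16, FGF22, PDGFRB and IGF2BP2 on crECM. HGF, IGFBP2, IGFBP6 and PDGFB met the requirement through crECM with only 1 plastic array above 3 SD. IGFBP5 met it through plastic with only 1 crECM array above 3 SD, and no p is given for these 5 genes. Between plastic and crECM 15 of the 57 (26.3%) were higher on crECM at an adjusted p under 0.05 (limma), where 24.2% of all genes were called higher, and 13 (22.8%) were lower, where 20.1% of all genes were. The median change was 0.05 on the log2 scale over these genes and 0.09 over all genes tested. In either direction 28 of 57 (49.1%) were called, against 44.3% of all genes. All crECM arrays lay above both plastic arrays for 16 of the 59 genes (27.1%, against 21.6% of all genes) and below both for 15 (25.4%, against 21.5%). The plastic arrays were over 3-fold apart, with values under 3 SD set to 3 SD, for 3 genes (5.08%, against 1.14%), IGFBP2, PDGFB and IGF2-AS. The shares called were thus near those of all genes. The split between higher and lower moved with the scaling, to 19 and 7 in values rebuilt from the raw intensities with regression, where 37.9% of all genes were higher and 8.58% lower. Without regression it was 42 and 0, where 83.2% of all genes were higher and 0.229% lower and the median of all genes moved to 1.32 on the log2 scale. When 3 SD on at least 6 arrays was required it was 16 and 6, where 25.8% and 15.5% of all genes were. At the level of probes 29 of 69 were called, 42% against 45.2% of all probes. In these bulk RNA samples a change in the share of cells that express a gene and a change in its RNA per cell cannot be told apart.

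**Figure D1:**
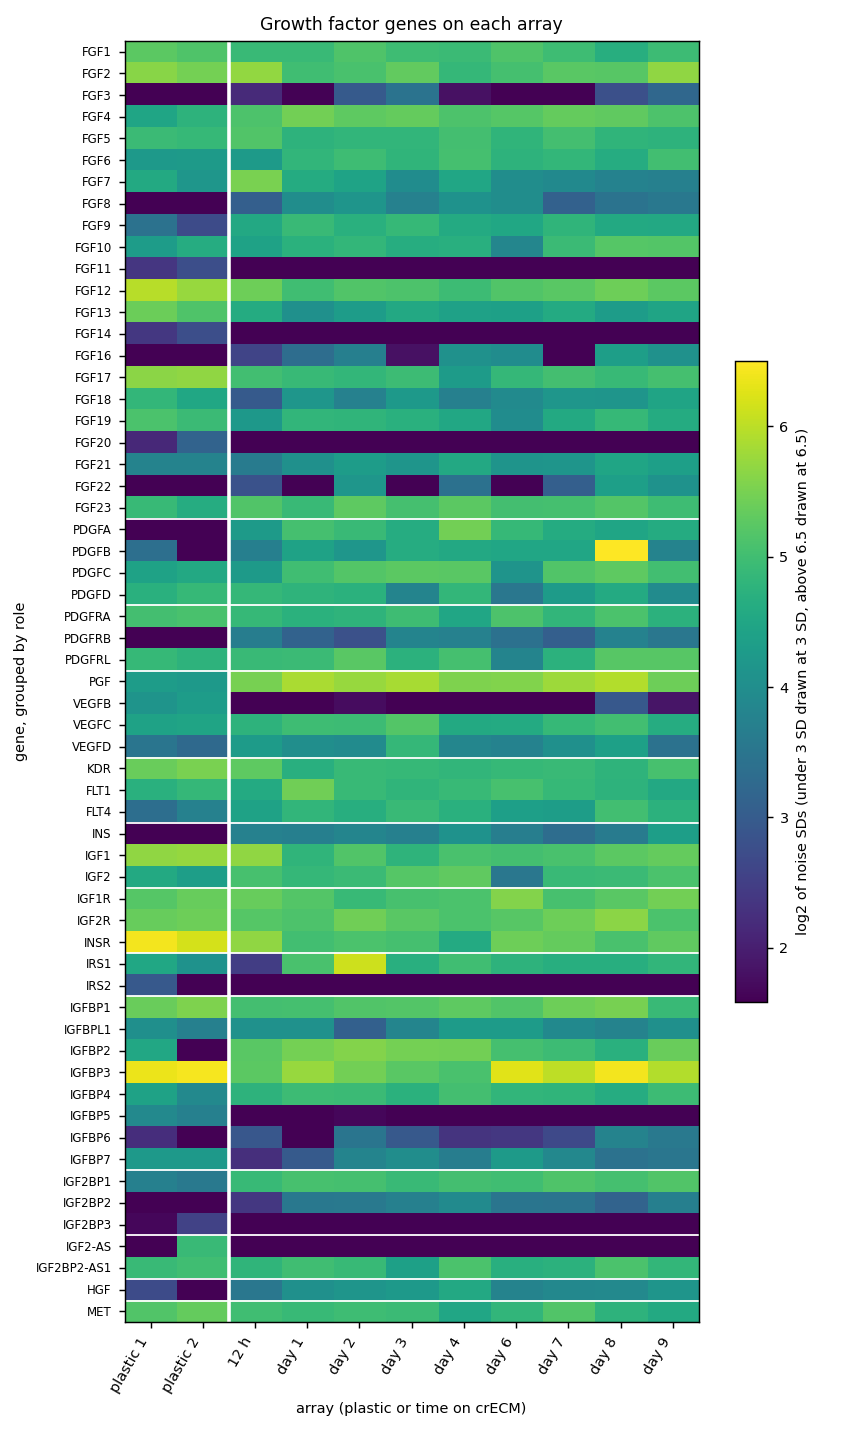
Level of each of the 59 growth factor genes (rows, grouped by role) on the 2 plastic and 9 crECM arrays (columns), as log2 of noise SDs, with values under 3 SD drawn at 3 SD and the scale ending at 6.5. Dark cells under plastic with brighter cells on crECM are PDGFA, PDGFRB, INS, FGF8 and IGF2BP2, and FGF3, FGF16 and FGF22 on some crECM arrays, and the rows that are dark on nearly all crECM arrays are FGF11, FGF14, FGF20, VEGFB, IRS2, IGFBP5, IGF2BP3 and IGF2-AS.

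The study called a gene off-on when its mean log10 value was under 0 on plastic and over 1 on crECM, and on-off when the reverse held. By these criteria 6 of the 59 growth factor genes were off-on, PDGFA, INS, FGF8, HGF, PDGFRB and IGF2BP2 (10.2%, against 3.96% of all genes), and 2 were on-off, VEGFB and IGFBP5 (3.39%, against 0.335%). The criteria take no account of spread and carry no test. PDGFA was at 1.46 SD and HGF at 6.56 SD on the first plastic array, so both entered the class through the second array and neither met it when the second plastic array was left out. After quantile normalization and in values rebuilt from the raw intensities with regression PDGFA alone met the criteria. In values rebuilt without regression 6 genes were off-on, FGF9, FLT4, IGF2BP1, IGFBP2, PDGFA and PDGFB, and 0 were on-off, so PDGFA alone was off-on under all 4 scalings.

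For 5 of the 6 off-on genes of the deposited scale, PDGFA, PDGFRB, INS, HGF and IGF2BP2, the 250 bases before the outermost transcription start in RefSeq (GRCh38.p14) are printed 5′ to 3′ on the strand of the gene, so that upstream sequences of genes that met the same criteria can be set side by side. All 5 lie on the minus strand: PDGFA at chr7:520701-520950, PDGFRB at chr5:150155846-150156095, INS at chr11:2161210-2161459, HGF at chr7:81770048-81770297 and IGF2BP2 at chr3:185825043-185825292. Capitals mark matches on either strand to the GC box, spelled GGGCGG, to the box named for the letters TATAAA, or to the CCAAT motif.
PDGFA: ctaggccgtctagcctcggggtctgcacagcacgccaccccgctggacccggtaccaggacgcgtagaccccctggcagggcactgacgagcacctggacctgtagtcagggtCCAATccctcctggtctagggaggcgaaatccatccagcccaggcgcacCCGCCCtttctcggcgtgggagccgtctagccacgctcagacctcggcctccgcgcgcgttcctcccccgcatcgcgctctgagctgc
PDGFRB: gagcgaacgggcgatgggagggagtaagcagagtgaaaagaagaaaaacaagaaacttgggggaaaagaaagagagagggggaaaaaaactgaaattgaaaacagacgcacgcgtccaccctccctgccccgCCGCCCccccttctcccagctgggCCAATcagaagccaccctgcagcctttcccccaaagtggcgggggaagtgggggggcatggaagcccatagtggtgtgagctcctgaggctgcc
INS: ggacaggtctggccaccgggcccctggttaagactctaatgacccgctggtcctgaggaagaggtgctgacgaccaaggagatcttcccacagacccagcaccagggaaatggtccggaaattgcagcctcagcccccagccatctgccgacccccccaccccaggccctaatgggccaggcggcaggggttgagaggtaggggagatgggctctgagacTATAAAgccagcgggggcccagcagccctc
HGF: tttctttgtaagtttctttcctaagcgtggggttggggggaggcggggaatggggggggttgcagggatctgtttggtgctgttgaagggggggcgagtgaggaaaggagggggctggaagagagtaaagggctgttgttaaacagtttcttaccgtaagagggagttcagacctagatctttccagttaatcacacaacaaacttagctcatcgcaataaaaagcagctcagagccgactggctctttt
IGF2BP2: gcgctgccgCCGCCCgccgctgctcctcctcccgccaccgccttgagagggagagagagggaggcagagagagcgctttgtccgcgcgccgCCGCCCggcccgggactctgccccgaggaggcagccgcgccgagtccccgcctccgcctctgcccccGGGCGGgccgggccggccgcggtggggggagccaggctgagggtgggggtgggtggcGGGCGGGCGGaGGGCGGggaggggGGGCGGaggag

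The upstream sequences had little in common. The PDGFA and PDGFRB windows each held 1 GC box and 1 CCAAT box, the INS window held 1 TATA box, the IGF2BP2 window held 7 GC boxes and the HGF window held none of the searched motifs. Their GC content was 68.8%, 58.4%, 64%, 81.6% and 50%, in the order PDGFA, PDGFRB, INS, IGF2BP2 and HGF, against a median of 57.6% over all promoters. PDGFA has 4 starts listed, and the window of the outermost is shown. Over 27303 promoters of the same length, 42.2% held a GC box, 33.0% a CCAAT box and 11.2% a TATA box, with overlapping matches counted each and no motif contained in another. The AP-1 element (TGACTCA), the E-box of USF (CACGTG) and the CRE (TGACGTCA), found in 4.15%, 6.46% and 1.75% of promoters, were in none of the 5 windows. Of 42 growth factor genes with a listed promoter, 28 held a GC box, 10 a CCAAT box and 5 a TATA box. A match is a run of letters and no evidence of binding.

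Of the PDGF genes 1 ligand and 1 receptor were called. PDGFA, the A chain of PDGF, was at 1.46 SD on the first plastic array and at the minimum on the second, and on crECM it lay between 19.3 SD at 12 h and 44 SD at day 4, with a median of 24.8 SD. Every crECM array was above both plastic arrays. PDGFA rose at least 9.08-fold (log2 change 3.18, SE 0.26), a lower bound on the deposited scale because both plastic arrays were under 3 SD. It passed the filter through crECM alone and both plastic values were set to 3 SD. No p is therefore given for PDGFA, nor for PDGFRB, INS, FGF8 and IGF2BP2, for which the same held. The log2 change was smaller under the other scalings, 1.93 after quantile normalization and 1.92 and 2.06 in values rebuilt with and without regression. Its raw intensity was 7.1 and -22 on plastic, against 195 to 680 on crECM. PDGFRB, the receptor that binds the B and D chains and is known as a marker of pericytes and fibroblasts, was at the minimum on both plastic arrays and between 7.01 and 13.9 SD on crECM, with a median of 11.6 SD. It rose at least 3.61-fold on the deposited scale (log2 change 1.85, SE 0.27), and the groups did not overlap. Its log2 change was 0.70 after quantile normalization and 0.95 and 0.93 in values rebuilt with and without regression. The raw intensity of PDGFRB was -9.3 and -35.6 on plastic and 102 to 334 on crECM. The marker list of fibroblasts and pericytes did not move in 1 direction. Of 8 genes 1 was higher (COL1A1) and 2 lower (COL1A2 and COL3A1), where 24.2% of all genes were higher and 20.1% lower. COL1A2 was above 3 SD on plastic alone, so the filter fixed its direction, and it was under 3 SD in the rebuilt values. COL3A1 was at 0.45 in those without regression. The summed level of the list ranged from 238 to 242 SD on plastic and from 212 to 259 SD on crECM.

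PDGFB, the B chain, was at 10.5 and 2.89 SD on plastic and between 13.1 and 193 SD on crECM, with a median of 22.4 SD. The value of 193 SD came from day 8 alone, and the other 8 crECM arrays lay between 13.1 and 24.7 SD. The groups did not overlap, and the change was not called (log2 change 2.16, SE 0.83). PDGFB met the filter through crECM with only 1 plastic array above 3 SD, so no p is given. PDGFRA, the receptor for A, B and C chains, was at 32.5 and 34.2 SD on plastic and between 22.6 and 35 SD on crECM, and the groups overlapped (log2 change -0.21, 95% interval -0.53 to 0.11; in values rebuilt without regression it turned to 1.16). A second PDGFRA probe was at 5.69 and 5.98 SD on plastic and under 3 SD on every crECM array but day 7, where it read 23.2 SD. PDGFRL, a receptor-like protein without a kinase, did not pass the test (log2 change 0.05, interval -0.61 to 0.72), with 29.5 and 27.1 SD on plastic and a crECM median of 30.7 SD. The C and D chains, PDGFC and PDGFD, overlapped between the groups and were not called (0.46 and -0.41 on the log2 scale, and 2.15 and 1.18 in values rebuilt without regression). Of 4 ligands and 3 receptors, PDGFA and PDGFRB were thus the members called, both higher.

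**Figure D2:**
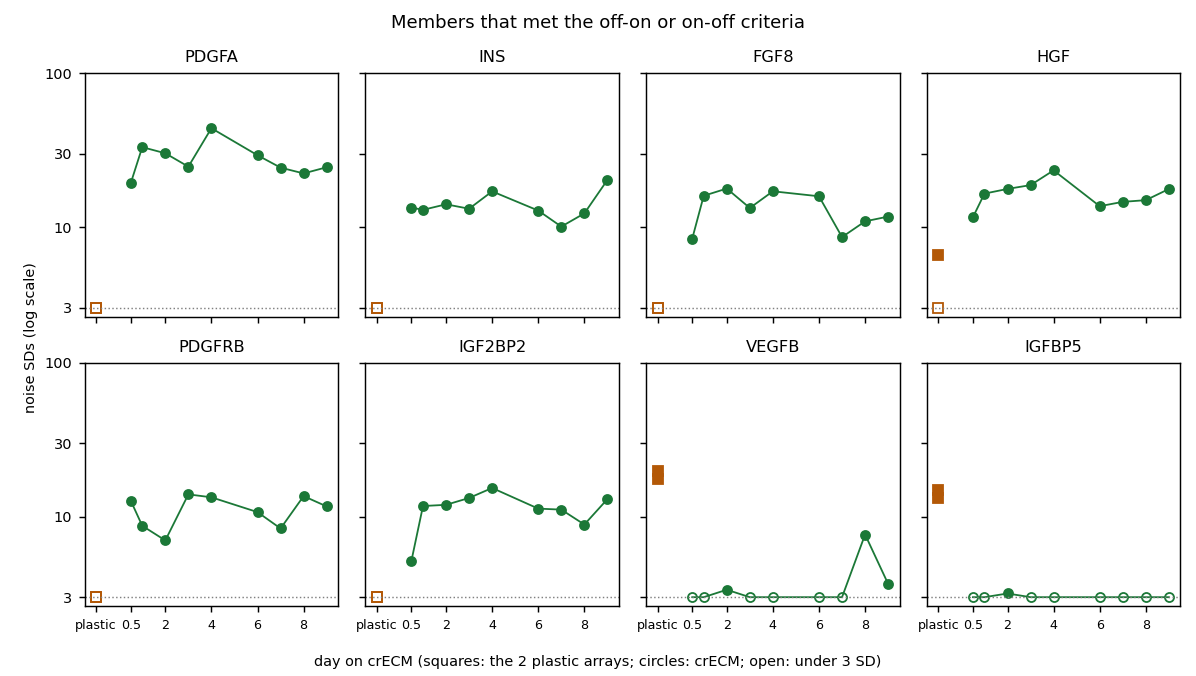
Noise SDs (log scale) of the 8 growth factor genes that met the off-on or on-off criteria, by day on crECM (circles, 1 array each) with the 2 plastic arrays on the left (squares). Open symbols are values under 3 SD drawn at 3 SD (dotted line). The 6 off-on genes are above 5 SD on all 9 crECM arrays, while VEGFB and IGFBP5 fall from above 13 SD on plastic to under 8 SD and under 3.2 SD.

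Insulin and the IGF ligands split. INS was at the minimum on both plastic arrays and between 10.1 and 20.3 SD on crECM, with a median of 13.2 SD and its highest value at day 9. It rose at least 4.6-fold on the deposited scale (log2 change 2.20, SE 0.23), given with no p as for PDGFA. Its log2 change was 1.01 after quantile normalization and 1.20 in values rebuilt with or without regression. Raw intensities of the INS probe were -36.6 and -47.5 on plastic and 119 to 355 on crECM, so the probe was weak on every array. The beta cell genes on the array, IAPP, PDX1 and NKX6-1, were all above 3 SD on both plastic arrays, and none was called higher while IAPP was lower (0.39 in values rebuilt without regression). IGF1, the liver-derived growth factor that binds IGF1R, was at 51.6 and 53.1 SD on plastic and between 27.5 and 51.5 SD on crECM, with a median of 34.1 SD. Its decrease was small and close to the spread (log2 change -0.57, SE 0.19, adjusted p = 0.0292), missed the threshold without the first or the second plastic array (adjusted p = 0.142 and 0.181), after quantile normalization (0.0593) and in values rebuilt with regression (0.0832), and turned to 0.41 in values rebuilt without regression. IGF2, the fetal growth factor, was at 23.9 and 20.4 SD on plastic and had a crECM median of 30.6 SD, with a low value of 11.5 SD at day 6. The groups overlapped for IGF2 and it was not called (log2 change 0.41, interval -0.37 to 1.20). A second IGF2 probe read 15.2 and 15.8 SD on plastic and a median of 17.4 SD on crECM, and was not called between the groups. Its lowest value was 6.56 SD at 12 h, against 11.9 to 22.2 SD on later days. The 2 probes differed there, with log2 differences of 12 h from later days of -1.39 for the second and 0.23 for the first.

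Of the receptors of this family INSR was called. INSR, the insulin receptor, was at 84.9 and 72.4 SD on plastic and between 24.1 and 51.4 SD on crECM, with a median of 34.5 SD. All crECM arrays were below both plastic arrays, and INSR fell 2.17-fold (log2 change -1.12, SE 0.21, adjusted p = 0.00128). In values rebuilt without regression the change was -0.42 and missed the threshold (adjusted p = 0.0718). The other INSR probes gave -1.03 (adjusted p = 0.123) and 0.26 (adjusted p = 0.549), so the 3 probes of the gene differed. IGF1R, the kinase that binds IGF1 and IGF2, had 37.1 and 40.8 SD on plastic and a crECM median of 36.3 SD (log2 change -0.06, interval -0.40 to 0.27), and IGF2R, which clears IGF2 from the surface, had 41.1 and 42.6 SD and a median of 37.4 SD (-0.10, interval -0.39 to 0.18). Both changes turned positive under quantile normalization (0.06 and 0.02) and in values rebuilt with regression (0.09 and 0.07) and without it (1.13 and 1.02).

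The insulin receptor substrates carry the signal from INSR and IGF1R to PI3K. IRS1 was at 22.8 and 16.9 SD on plastic and between 5.6 SD at 12 h and 69.4 SD at day 2 on crECM, with a median of 27.1 SD. The groups overlapped (log2 change 0.40, interval -0.99 to 1.79). IRS2 was at 7.81 SD and at the minimum on plastic and under 3 SD on all 9 crECM arrays.

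Of the 8 IGF binding proteins 2 were called higher and 1 lower, where 24.2% of all genes were higher and 20.1% lower. IGFBP2, a carrier of IGF2 that is often raised in tumors, was at 23.1 SD on the first plastic array and 2.34 SD on the second, and between 26.2 and 47.9 SD on crECM, with a median of 41.6 SD. The groups did not overlap. IGFBP2 met the filter through crECM with only 1 plastic array above 3 SD, so no p is given. The size of the change rested on the second plastic array: the log2 change was 2.20 (SE 0.53) and without that array 0.73. It was 1.51 after quantile normalization and 1.48 in values rebuilt with regression. IGFBP4, an inhibitor of IGF action, was at 21.3 and 15 SD on plastic and between 24.8 and 32.8 SD on crECM and rose 1.61-fold (log2 change 0.68, SE 0.14, adjusted p = 0.00195, and 2.07 in values rebuilt without regression). IGFBP5, a matrix-bound carrier, was at 14.9 and 13.3 SD on plastic and under 3 SD on every crECM array but day 2, where it read 3.17 SD. With these 8 arrays set to 3 SD the log2 change was -2.22, at least 4.66-fold lower on the deposited scale, and it was -1.38 after quantile normalization and -0.95 in values rebuilt with regression. IGFBP5 passed the filter through the plastic arrays and the crECM spread was set by the floor, so no p is given. The raw intensities of IGFBP5 were 97.5 and 72.2 on plastic, against -60.2 to 126 on crECM, and overlapped. A second IGFBP5 probe read 4.51 and 2.99 SD on plastic and under 3 SD on every crECM array. That probe did not pass the filter and did not meet the on-off criteria. IGFBP3, the main carrier in serum, had 81.7 and 86.8 SD on plastic and between 34 and 85 SD on crECM and was not called (log2 change -0.68, interval -1.38 to 0.02). IGFBP1, IGFBP6, IGFBP7 and IGFBPL1 were not called and overlapped between the groups.

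The IGF2 mRNA binding proteins bind RNA and not IGF, and hold IGF2 and MYC transcripts among others. IGF2BP1 was at 13.2 and 11.9 SD on plastic and between 29.6 and 35.8 SD on crECM, the narrowest spread among the genes called higher. It rose 2.61-fold (log2 change 1.38, SE 0.09, adjusted p = 2.24e-07, and 0.89 after quantile normalization and 2.32 in values rebuilt without regression). A second IGF2BP1 probe read 23.3 and 22.5 SD on plastic and a median of 27.5 SD on crECM and was not called (0.22, adjusted p = 0.254). IGF2BP2 was at the minimum on both plastic arrays and between 5.18 and 15.3 SD on crECM, with a median of 11.7 SD. IGF2BP2 rose at least 3.62-fold on the deposited scale (log2 change 1.86, SE 0.32), given with no p as for PDGFA. Its log2 change was 0.70 after quantile normalization and 0.96 and 0.99 in values rebuilt with and without regression. IGF2BP3 was at 3.21 and 5.89 SD on plastic and under 3 SD on all crECM arrays (log2 change -0.53 with these at 3 SD). The antisense RNA IGF2BP2-AS1 was not called (-0.11, interval -0.47 to 0.25, and 1.31 in values rebuilt without regression), and IGF2-AS was at 2.44 and 30.3 SD on plastic and under 3 SD on crECM. Which strand each probe reads was not given in the sources used here.

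VEGF ligands moved in both directions. PGF, placental growth factor, which binds FLT1, was at 19.8 and 18.6 SD on plastic and between 42.6 and 60.8 SD on crECM, with a median of 53.3 SD. It rose 2.69-fold (log2 change 1.43, SE 0.13, adjusted p = 5.26e-06, and 2.89 in values rebuilt without regression), and a second probe read 11.3 and 9.77 SD on plastic and 11.3 to 15.2 SD on crECM (0.36, adjusted p = 0.118). VEGFB, also a ligand of FLT1, was at 17.6 and 19.6 SD on plastic and over 3 SD on 3 of the 9 crECM arrays, with 7.65 SD at day 8 as the highest. It fell at least 5.39-fold on the deposited scale (log2 change -2.43, SE 0.30, adjusted p = 6.43e-05). The log2 change was -1.58 after quantile normalization and -1.27 in values rebuilt with regression. In values rebuilt without regression VEGFB was under 3 SD on every array but 1 and was not tested. Its raw intensities, 123 and 126 on plastic, against -13.7 to 166 on crECM, overlapped. The lymphatic ligand VEGFC lay above both plastic arrays on every crECM array (21.4 and 21.9 SD against 23.7 to 36.3 SD) and missed the threshold (log2 change 0.40, adjusted p = 0.0541). VEGFD gave 0.68 (adjusted p = 0.0838) with overlapping groups.

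The VEGF receptors likewise did not move together. FLT4, the receptor of VEGFC and VEGFD, was at 10.3 and 13.3 SD on plastic and between 19.9 and 32.1 SD on crECM and rose 2.16-fold (log2 change 1.11, SE 0.19, adjusted p = 8.13e-04, and 0.59 after quantile normalization and 1.97 in values rebuilt without regression). A second FLT4 probe was at the minimum on plastic and over 3 SD on 6 crECM arrays (log2 change 0.82). That probe was not called, and it passed the filter through crECM alone, so its direction was fixed and no p is given. KDR, the main receptor of VEGFA in endothelium, was at 41.3 and 45.4 SD on plastic and between 25.8 and 38.6 SD on crECM, which is a lower level (log2 change -0.53, SE 0.13, adjusted p = 0.00579) that turned to 0.62 in values rebuilt without regression and missed the threshold without the second plastic array (adjusted p = 0.0834). FLT1 was not called by its stronger probe (0.09, interval -0.32 to 0.50), with overlapping groups, and its other probe was called higher (0.40, adjusted p = 0.00585). Among 8 endothelial markers 2, CDH5 and VWF, were higher and none lower, where 24.2% of all genes were higher and 20.1% lower. VWF passed the filter through crECM alone, so its direction was fixed. In values rebuilt without regression VWF rose by 0.92 and CDH5 by 1.94, against a median of 1.32 over all genes. The summed level of these markers was 92.6 and 96.9 SD on plastic and 135 to 1373 SD on crECM, where ESAM reached 1232 SD on a single array. PECAM1, ROBO4 and ESAM were at the minimum on both plastic arrays, and TEK and CLDN5 were above 20 SD on every array. The part of such transcripts in the VEGF results was not tested.

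Among 22 FGF ligands 5 were higher, 6 lower and 11 not called, where 24.2% of all genes were higher and 20.1% lower. Of the 6 lower ones 3, FGF11, FGF14 and FGF20, had no crECM array above 3 SD. The filter fixed the direction of these 3 and of FGF8. FGF8, an embryonic mitogen, was at the minimum on both plastic arrays and between 8.42 and 17.8 SD on crECM, with a median of 13.3 SD. It rose at least 4.29-fold on the deposited scale (log2 change 2.10, SE 0.30), given with no p as for PDGFA. Its log2 change was 0.93 after quantile normalization and 1.13 in values rebuilt with or without regression. Its raw intensities were -56.8 and -93.6 on plastic and 105 to 379 on crECM. FGF9, a ligand that acts from epithelium on mesenchyme, was at 10.8 and 6.51 SD on plastic and between 22.9 and 30.1 SD on crECM, with a median of 24.1 SD, and rose 3.04-fold (log2 change 1.60, SE 0.18, adjusted p = 3.34e-05, and 0.95 after quantile normalization). FGF4 (log2 change 0.64), FGF6 (0.54) and the hormone FGF23 (0.34) rose by less, and FGF6 overlapped between the groups. FGF3, FGF16 and FGF22 were at the minimum on both plastic arrays and above 3 SD on 7, 8 and 6 crECM arrays, and were not called. FGF1 and FGF2, the acidic and basic prototypes of the family, were not called either. FGF1 was at 38.4 and 35.5 SD on plastic and between 25.3 and 35.6 SD on crECM (log2 change -0.25, interval -0.49 to -0.00449, adjusted p = 0.0898), and FGF2 was at 49.4 and 44.3 SD and between 29.2 and 52.1 SD (-0.31, interval -0.74 to 0.13), and both were positive in values rebuilt without regression (1.02 and 0.75). FGF18 and FGF19 lay below both plastic arrays on every crECM array and missed the threshold (-0.73 and -0.46, adjusted p = 0.0789 and 0.0983, and 0.96 and 0.95 in values rebuilt without regression), and FGF5, FGF7, FGF10 and FGF21 overlapped between the groups.

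FGF11, FGF12, FGF13 and FGF14 form the intracellular FGF subfamily, which binds sodium channels and is not secreted. All 4 were among the genes called lower. FGF11 and FGF14 had no crECM array above 3 SD, and the filter fixed their direction, as described further on. FGF12 was at 62.4 and 53.4 SD on plastic and between 31.1 and 42.6 SD on crECM (log2 change -0.66, adjusted p = 0.00105), a difference that turned to 0.25 in values rebuilt without regression. A second FGF12 probe was at the minimum on plastic and above 3 SD on 8 crECM arrays (log2 change 1.22). That probe was not called, and it passed the filter through crECM alone, so its direction was fixed and no p is given. FGF13 was at 42 and 35.5 SD on plastic and between 16.5 and 24.3 SD on crECM (-0.87, adjusted p = 5.98e-04), and turned to 0.44 without regression. The secreted FGF17, at 50 and 51.7 SD on plastic and between 19.4 and 33.2 SD on crECM, was called lower as well (-0.80, adjusted p = 0.00224) and turned to 0.24 without regression. In none of these 3 did the groups overlap on the deposited scale.

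FGF11, FGF14, FGF20 and IGF2BP3 were called lower with no crECM array above 3 SD, which held for 4 of 57 genes (7.02%, against 4.11% of all genes). On plastic FGF11 was at 5.17 and 6.81 SD, FGF14 at 5.19 and 6.76 SD and FGF20 at 4.42 and 8.84 SD. These genes passed the filter through the plastic arrays alone and every crECM value was set to 3 SD, so the filter and the floor fixed their direction, and their log2 changes (-0.98 for FGF11 and FGF14 and -1.06 for FGF20) are given with no p. With a floor of 1 SD the log2 changes were -2.57 for FGF11 and -2.49 for FGF14, and after quantile normalization -0.43 for both. The raw intensities ran the other way or overlapped. FGF11 had 24.5 and 28.2 raw units on plastic and 28.3 to 57.9 on crECM, and FGF14 had 24.6 and 27.9 against 32.8 to 96.2. FGF20 had 20.3 and 40.5 against 24 to 54.2, and IGF2BP3 had 14.2 and 23.1 against 34.1 to 97. These raw intensities lay near the larger low peak of both plastic arrays, which the deposited scale places above 3 SD, whereas the main low peak of the crECM arrays is placed under it. In values rebuilt from that peak without regression none of these 4 genes, nor IGFBP5, was above 3 SD on any array.

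**Figure D3:**
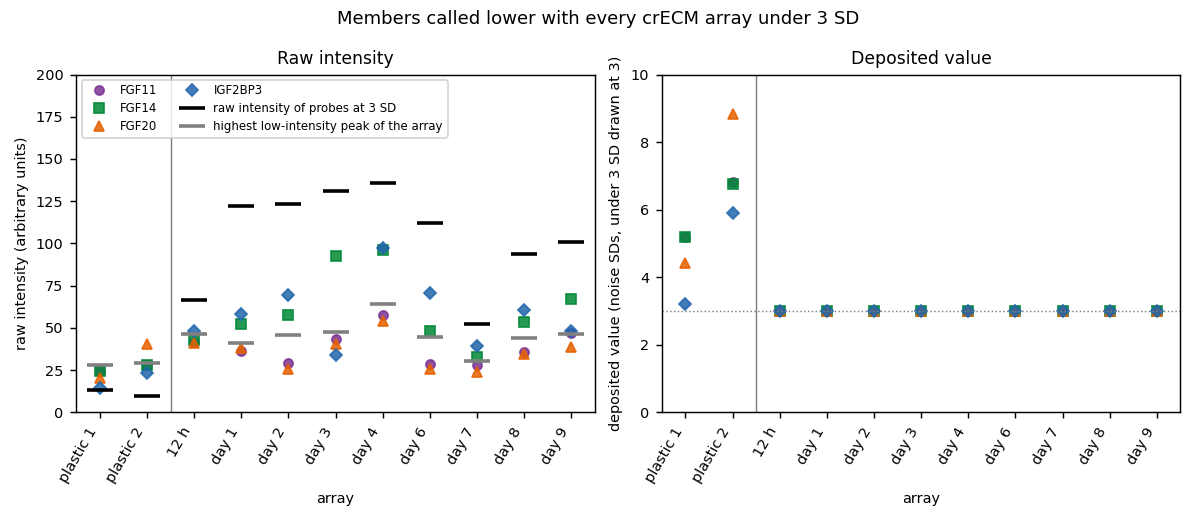
Raw intensity (left, arbitrary units) and deposited value (right, noise SDs, under 3 SD drawn at 3) of FGF11, FGF14, FGF20 and IGF2BP3 on each array, with the raw intensity that corresponds to 3 SD (black bars) and the larger low-intensity peak (grey bars). On plastic the 4 genes sit above the black bars of 13.4 and 9.6, and on crECM they have similar or higher raw intensities and sit under black bars of 52.3 to 136.

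HGF and its receptor MET were called in opposite directions, the latter at the threshold only. HGF, made mostly by mesenchymal cells and known to drive scattering of epithelium, was at 6.56 SD and at the minimum on plastic and between 11.6 and 23.4 SD on crECM, with a median of 16.5 SD. Its groups did not overlap, and it rose at least 3.67-fold on the deposited scale (log2 change 1.87, SE 0.30). HGF met the filter through crECM with only 1 plastic array above 3 SD, so no p is given. Its log2 change was 0.88 after quantile normalization and 1.38 and 1.41 in values rebuilt with and without regression. MET was at 36.1 and 40.6 SD on plastic and between 22.7 and 36 SD on crECM, with its highest crECM value just under the lower plastic array. Its log2 change of -0.41 (SE 0.15, adjusted p = 0.0477) was at the threshold and missed it without the first or the second plastic array (adjusted p = 0.113 and 0.306), with array weights (0.12), after quantile normalization (0.166) and in values rebuilt with regression (0.251). It also missed it with no filter (0.0504), the filter of 6 arrays (0.0508) and a floor of 5 SD (0.0509), and it turned to 0.85 in values rebuilt without regression.

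**Figure D4:**
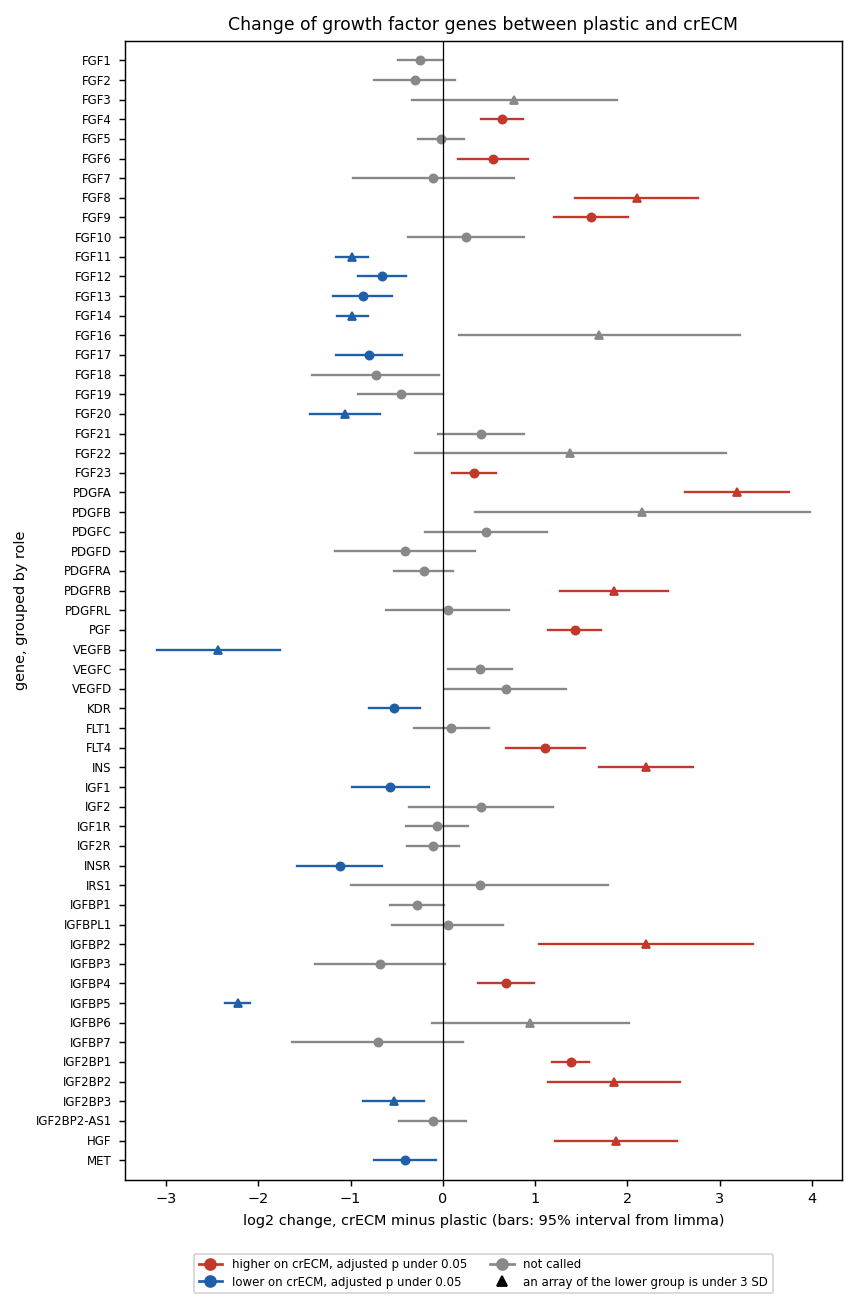
Log2 change from plastic to crECM of the 57 growth factor genes tested (points) with 95% intervals from limma (bars), red for 15 genes called higher, blue for 13 called lower and grey for 29 not called. Triangles mark genes with an array of the lower group under 3 SD, whose change is a lower bound on the deposited scale only. The lower calls of FGF12, FGF13, FGF17, IGF1, KDR and MET turn positive in values rebuilt without regression.

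At the first time point, 12 h, all 6 off-on genes were already above 5 SD. The single 12 h array was compared with the 8 later crECM arrays and was assumed to vary like them. Of 57 genes 2 differed (3.51%, against 5.97% of all genes), both lower at 12 h, and 10 had an unadjusted p under 0.05 (17.5%, against 19.5%). IRS1 was at 5.6 SD at 12 h and between 25.3 and 69.4 SD on the later days (log2 difference -2.49, SE 0.49, adjusted p = 0.0228), and was at 22.8 and 16.9 SD on plastic. IGF2BP2 was at 5.18 SD at 12 h and between 8.88 and 15.3 SD later (-1.20, SE 0.25, adjusted p = 0.0276). FGF6 came next, at 19.1 SD at 12 h and between 24.8 and 33 SD later (-0.61, adjusted p = 0.0529). Under quantile normalization neither IRS1 (log2 difference -2.05) nor IGF2BP2 (-0.78) was called. In values rebuilt with and without regression IRS1 was called (-1.72 and -2.31) and IGF2BP2 was not (-0.77 and -1.12). FGF18 was low at 12 h with 7.89 SD and FGF7, the keratinocyte growth factor that acts on epithelium, was high with 45.9 SD against 13.2 to 24.4 SD on later days, and both missed the threshold (adjusted p = 0.0585 and 0.061).

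No growth factor gene had a trend over the days on crECM at an adjusted p under 0.05 in limma (0 of 57, against 0.00689% of all genes). Before adjustment 4 genes (7.02%, against 8.71%) passed the same threshold: FGF7, IGFBP7, FGF18 and FGF21. The slope of FGF7 was -0.36 on the log2 scale per doubling of the day (limma, adjusted p = 0.28), and those of IGFBP7, FGF18 and FGF21 were 0.31, 0.21 and 0.14 (adjusted p = 0.498, 0.519 and 0.504). Without the 12 h array the slopes were -0.27 for FGF7, 0.14 for IGFBP7 and 0.07 for FGF21. FGF7 ran from 45.9 SD at 12 h and 24.4 SD at day 1 to 13.6 SD at day 8 and 13.2 SD at day 9. IGFBP7 stood at 4.75 SD at 12 h and 7.83 SD at day 1 and between 10.8 and 19.1 SD from day 2 on, against 19 and 18.6 SD on plastic. The spread over crECM arrays, as SD of log2 values, had a median of 0.27 over the growth factor genes and 0.23 over all genes tested.

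**Figure D5:**
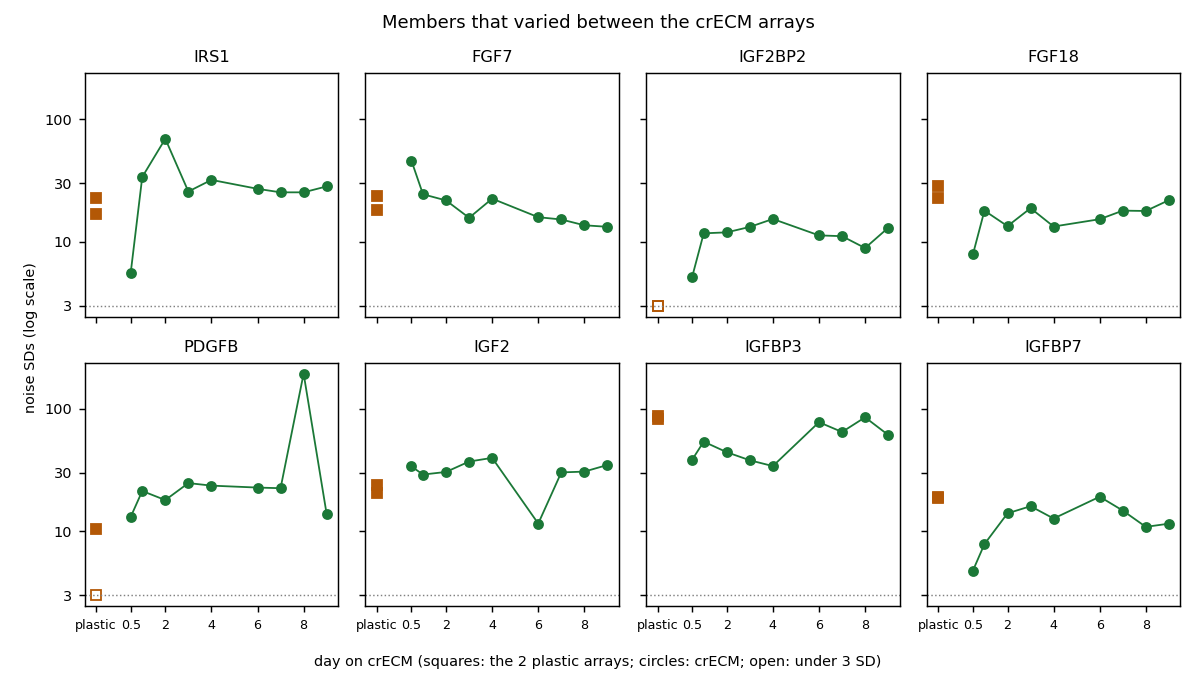
Noise SDs (log scale) of 8 growth factor genes by day on crECM (circles, 1 array each), with the 2 plastic arrays on the left (squares, open where under 3 SD). IRS1, IGF2BP2 and FGF18 are lowest and FGF7 highest at 12 h, PDGFB stands out at day 8 with 193 SD and IGF2 at day 6 with 11.5 SD.

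Other genes of the pathway were called in both directions, and their counts are to be read against 24.2% of all genes higher and 20.1% lower. Of 36 genes of receptor tyrosine kinase signaling on the array 10 were higher and 5 lower (median log2 change 0.28, against 0.09 over all genes). The receptors FGFR4 and FGFR1 were among the higher ones: FGFR4 was at 3.03 SD and at the minimum on plastic and between 15.2 and 25.6 SD on crECM (at least 6.64-fold), and FGFR1 was at the minimum and between 6.83 and 15.8 SD (at least 4.29-fold). Both folds are bounds on the deposited scale only, with log2 changes of 2.73 and 2.10. Their log2 changes were 1.51 and 0.93 after quantile normalization. In rebuilt values they were 1.59 and 1.13 with regression and 1.68 and 1.16 without it. The docking protein GAB1 was lower, from 22.5 and 29.2 SD on plastic to between 1.74 and 10.9 SD (log2 change -2.11, SE 0.46, adjusted p = 0.0031, and 0.05 in values rebuilt without regression), and the adaptor NCK1 from 5.24 and 8.62 SD to under 3 SD on crECM, while in the rebuilt values NCK1 was under 3 SD on every array (a change of 0.0000). Of 20 feedback and response genes tested, which are induced by active receptors or damp them, 4 were higher and 5 lower (median -0.14). The phosphatase DUSP4 (at least 4.21-fold on the deposited scale) and MYC (2.45-fold) were higher. Their log2 changes were 2.07 and 1.29 on the deposited scale and 0.93 and 0.77 after quantile normalization. The transcription factors EGR3 and ETV4 were lower, from 26.9 and 25.4 SD and 16 and 17 SD on plastic to crECM medians of 2.11 and 4.08 SD. ETV4 turned to 0.41 in values rebuilt without regression. Of 16 co-receptors and matrix partners 3 were higher and 2 lower (median 0.01), with the heparan sulfate proteoglycans SDC3 and GPC4 higher and GPC6 and the hyaluronan receptor CD44 lower (0.29 and 0.72 in values rebuilt without regression). The log2 changes of SDC3 and GPC4 were 1.80 and 1.14 on the deposited scale and 0.69 and 0.39 after quantile normalization. FGFR1, DUSP4 and SDC3 passed the filter through crECM alone and NCK1 through plastic alone, so the filter fixed their direction. FGFR4 met it through crECM with only 1 plastic array above 3 SD. In values rebuilt without regression FGFR1 (1.16), DUSP4 (1.15) and SDC3 (0.88) rose by less than the median of all genes (1.32). FGFR4 (1.68), MYC (2.13), GPC4 (1.49), MMP7 (1.64) and PCSK5 (2.09) rose by more. Of 17 activators and carriers of the ligands 3 were higher and 2 lower (median 0.12), among them the protease MMP7, from 3.48 and 4.93 SD to between 12.7 and 23.9 SD (4.7-fold), the proprotein convertase PCSK5 (1.83-fold) and, lower, the inhibitor of HGF activation SPINT2, whose change was 0.01 in values rebuilt with regression and 0.0000 without it.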

How the data were processed

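RNA of RT4 cells was labeled with Cy3 and hybridized to glass arrays of spotted long oligonucleotides, 2 arrays for plastic and 9 for crECM. The raw intensity of every probe was deposited, together with log10 values that the authors made by dividing intensities above the zero point by the SD of the noise peak, taking logarithms and adjusting arrays globally with a robust linear regression. Scanner background correction is not given in the sources used here. The deposited log10 values were turned to log2, and values under 3 SD were set to 3 SD. A fold is therefore a lower bound, on the deposited scale only, where an array of the lower group was under 3 SD. Of the 22464 probes 17043 had a single gene symbol, 172 several and 5249 none, and all 59 growth factor genes matched RefSeq by gene identifier. Deposited and raw values of the 72 probes followed the same order on every array within 0.05 log10 units.

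limma 3.58.1 in R 4.3.3 (lmFit, eBayes with a trend) was fitted to the probes above 3 SD on at least 2 of 11 arrays, with Benjamini-Hochberg adjustment over all 21480 such probes. Counts over genes use the probe with the highest mean. The 12 h array was compared with the 8 later crECM arrays, and a trend was fitted on log2 of the day. The fits were also run on simulated data, whose outcome is not given here. Counts and figures used Python 3.11.15 with numpy 2.4.6, pandas 2.3.3, scipy 1.17.1 and matplotlib 3.10.9. The number of arrays limits the precision.

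The genes, lists and tests were chosen with earlier results of these data known. Given with values are PDGFA, PDGFRB and INS, called genes without overlap (up to 12 in each direction by size), all receptors and adaptors of the set, up to 3 genes by adjusted p for 12 h and for the trend, and up to 2 genes per pathway list and direction. Other members were named after their values were seen. As alternatives, values were rebuilt from raw intensities with and without regression, and the following were tried: quantile normalization, centring, other floors and filters, array weights, a linear scale of time, medians for means, and leaving out arrays.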

Additional observations from a re-analysis of the deposited data

Results flagged for a closer look

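For 12 of 53 growth factor genes 1 crECM array stood apart from the other 8 by the Dixon ratio, where chance gives 1 in 20, or 2.65 of 53. The share of 22.6% was near that of all genes, of which 21.9% (3061 of 13998) had such an array. At 12 h IRS1 (5.6 SD, others 25.3 to 69.4), IGF2BP2 (5.18 SD, others 8.88 to 15.3) and FGF18 (7.89 SD, others 13.3 to 21.9) were low and FGF7 (45.9 SD, others 13.2 to 24.4) was high. At day 8 PDGFB (193 SD, others 13.1 to 24.7, raw intensity 2227) and VEGFB (7.65 SD, others up to 3.66) were high and FGF1 (25.3 SD, others 30 to 35.6) was low. At day 6 IGF2 (11.5 SD, others 29 to 39.6) and PDGFRL (13.9 SD, others 26.9 to 37.8) were low. At day 2 IGFBPL1 (8.49 SD, others 13.8 to 19.5) was low and IGFBP5 (3.17 SD) was high, a ratio fixed by the other 8 values being set to 3 SD, and at day 4 FGF17 (19.4 SD, others 28.7 to 33.2) was low. Each value rests on 1 probe on 1 array, and its cause was not tested.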

How the results depend on the processing

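The calls of PDGFA, PDGFRB, INS, FGF8, FGF9, HGF, PGF, FLT4, IGF2BP1, IGF2BP2 and IGFBP4 as higher kept their side of the threshold under every alternative run. The median of all genes was 1.32 on the log2 scale after rebuilding without regression and 0.25 with it. In values rebuilt without regression PDGFRB (0.93), IGF2BP2 (0.99), FGF8 (1.13) and INS (1.20) rose by less than that median. A call as higher there does not set them apart from all genes, while the others listed rose by more. On the deposited scale the filter fixed the direction of PDGFRB, IGF2BP2, FGF8, INS and PDGFA. HGF met the filter through crECM with only 1 plastic array above 3 SD. Without regression 42 growth factor genes were higher and 0 lower (limma), 22 were above 3 SD on all arrays in place of 39, 6 genes were off-on, of which PDGFA alone was so on the deposited scale, and 0 on-off, and FGF13 (0.44), FGF17 (0.24), FGF12 (0.25), IGF1 (0.41), KDR (0.62), MET (0.85), IGF1R (1.13), IGF2R (1.02) and PDGFRA (1.16) turned positive, all under the shift of all genes. With regression 19 were higher and 7 lower, where 37.9% of all genes were higher and 8.58% lower. IGF1R (0.0923) and IGF2R (0.0669) turned positive there, as they did under quantile normalization (0.0563 and 0.0249). Under quantile normalization 14 of 55 were higher and 10 lower, where 16.8% of all genes were higher and 16% lower. With a filter of 3 SD on at least 6 arrays 16 were higher and 6 lower, where FGF11, FGF14, FGF20, IGF2BP3, IGFBP5 and VEGFB were not tested and MET missed the threshold (adjusted p = 0.0508). With regression and under quantile normalization 1 gene, PDGFA, was off-on and 0 on-off, and 1 and 0 genes, respectively, were called at 12 h, lower where called. FGF11, FGF14, FGF20, IGF2BP3, IGFBP5 and VEGFB were removed by the filter in the rebuilt values without regression. Without one plastic array off-on and on-off genes were 6 to 9, with 4 to 6 off-on and 2 to 3 on-off. Counts of calls are not given for these fits, which leave 1 array in the plastic group. Without one plastic array IGF1R ranged from -0.1314 to 0.0052 and PDGFRL from -0.0102 to 0.1168, and the second array's removal turned both. Leaving out the day 7 array and counting genes above 3 SD in rebuilt values were chosen after seeing the data. The cause of these differences was not tested. No paired analysis was possible because the crECM arrays carry no replicate numbers.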
